A study of Homo sapiens with 72 samples.

Results

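The set described here was 9 of the 44659 gene names counted in the series: *NFE2L2*, which encodes the transcription factor NRF2, and 8 mRNAs of the antioxidant response that it controls, *HMOX1*, *NQO1*, *GCLM*, *GCLC*, *TXNRD1*, *SRXN1*, *TXN* and *OSGIN1*. Their rows were found by symbol, with no threshold on a measured level, although the set was drawn up with earlier results of these data known. All 9 passed the filter on low counts in every comparison at 0 h, and the lowest count of any of them in any library was 25, for *HMOX1*.

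The libraries were 3′-end RNA-sequencing libraries (QuantSeq) of cytoplasmic RNA from A375, an established human melanoma cell line. Cells were transfected for 42 h with a pool of 2 small interfering RNAs against *CTU2* (siCTU2) or with the control siRNA GL2 (siGL2), or were grown for 18 h in medium lacking glutamine (mQ) or in control medium (pQ). CTU2 is a subunit of the enzyme that thiolates the wobble uridine of certain tRNAs. All 4 conditions then received triptolide, an inhibitor of transcription, at 25 µM, either alone (the T arm) or after cycloheximide, an inhibitor of translation elongation, at 100 µg/ml (the TCHX arm), and were collected at 0, 3 and 5 h with 3 replicates each, giving 72 libraries in 24 groups. The labels do not say whether replicates were separate cultures, so that p-values measure the spread between these samples, which may be technical. A single cell line was used.

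NRF2 is a basic leucine zipper factor that is continuously ubiquitinated through KEAP1, an adaptor of the CUL3 ubiquitin ligase, and degraded. Electrophiles and oxidants modify KEAP1, NRF2 then escapes degradation, pairs with a small MAF protein and binds antioxidant response elements (AREs), which the repressor BACH1 can also occupy. Much of NRF2 control therefore lies in the amount of protein, which was not measured here. Its targets rebuild glutathione (GCLC, GCLM), reduce thioredoxin and peroxiredoxins (TXNRD1, TXN, SRXN1), and detoxify quinones and heme (NQO1, HMOX1).

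The siRNAs that defined the knockdown were the following, written as the strand that has the sense of the mRNA, with capitals on the bases that pair with bases 2 to 8, the seed, of the guide strand.
siCTU2#1: cuaucaagcucAUGACCAa
siCTU2#2: gcgugaacaugAAGGACUu
The first occurs in 5 and the second in 7 of the 10 *CTU2* transcripts of the GENCODE annotation, and the complement of either in 0 of them.

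Upstream sequence is shown for the members whose start-site windows held the ARE core TGACNNNGC or the MAF recognition sequence TGAGTCAGC, searched on both strands. RefSeq promoter windows of 300 bases (250 before to 50 after each start; GRCh38.p14) were found for 8 of the 9 members, 10 windows in all, and 3 members had a match. The ARE core was present in 13.35% and the MAF sequence in 0.4613% of all 35116 promoter windows, and in 16.06% and 0.564% of the 27305 genes that these windows belong to. The 2 motifs can overlap in one site but did not do so in the stretches below, in which capitals mark the match and the letters run along the gene's own strand.
GCLM, chr1:93909431-93909509, minus strand: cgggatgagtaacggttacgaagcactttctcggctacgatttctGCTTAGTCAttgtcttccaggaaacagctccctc
TXNRD1, chr12:104215635-104215733, plus strand: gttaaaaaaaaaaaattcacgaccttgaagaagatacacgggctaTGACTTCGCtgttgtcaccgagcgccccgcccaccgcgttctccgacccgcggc
TXNRD1, second start, chr12:104286885-104286983, plus strand: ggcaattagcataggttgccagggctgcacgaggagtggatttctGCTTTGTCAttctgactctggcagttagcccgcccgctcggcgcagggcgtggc
OSGIN1, chr16:83953096-83953194, plus strand: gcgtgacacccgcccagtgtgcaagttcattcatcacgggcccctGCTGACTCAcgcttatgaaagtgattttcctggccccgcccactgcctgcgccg
The *GCLM* and *OSGIN1* matches and the one at the second *TXNRD1* start lie on the opposite strand. A further ARE core match on the opposite strand, which begins 8 bases before the first *TXNRD1* start and runs across it, is not shown. A match describes letters only, and so does the absence of one in a window of this size.

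Totals ranged from 5987692 to 15534331 counts per library. *CTU2* stood at 0.13 to 2.95 CPM (a gene's share of all counts in its library, in the usual CPM scaling) in 17 of the 18 siCTU2 libraries and at 17.5 to 35.0 CPM in those of siGL2, and it was lower in siCTU2 than in siGL2 at 0 h by a log2 change of -3.71 ± 0.276 (SE, adjusted p = 9.16e-09). In the remaining one, labelled as replicate 3 of siCTU2 at 5 h in the TCHX arm, *CTU2* reached 10.4 CPM. This library, mQ T 5 h replicate 3 and pQ TCHX 0 h replicate 3 had counts for 19896 to 20364 genes, as compared to 15507 to 17495 in the other 69. They also carried the leukocyte markers *PTPRC* (31.1 to 32.6 CPM) and *CD3E* (31.1 to 32.6 CPM), which reached at most 0.759 and 0.304 CPM in the other 69, where *CD3E* was at 0 in 67. Some results that rest on these libraries are also given without them. The others include them, among these the TDD index (defined below) and the TCHX arm values of *NFE2L2* and *OSGIN1* for mQ against pQ. The part of the leukocyte mRNAs in the members' levels was not tested. Replicate 3 at 5 h also stood apart as a library, differing more from replicates 1 and 2 than these from each other in every condition and arm. The chi-square per degree of freedom was 103 and 113 against 6.87 in siCTU2 T, and 43 and 45.9 against 33.2 in siCTU2 TCHX. Among the members, it was the lowest of 3 in 8 of 8 groups for *NQO1* and *TXN* and in 7 of 8 for *TXNRD1* and *SRXN1*. It was the highest in 7 of 8 for *HMOX1* and in 6 of 8 for *NFE2L2* and *OSGIN1*. Of 8 melanocyte lineage markers, 6 were at 1 CPM or more in every condition (all but *MLANA* and *TYR*), summing to 855.6 to 1266 CPM in the T arm at 0 h, and 9 markers of other cell types summed to 1.05 to 4.62 CPM there. Over all times and both arms these 9 summed to 71.4 to 74.5 CPM in the 3 libraries with counts for more genes and to 0.286 to 7.31 CPM in the other 69.

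The first comparison set the antioxidant mRNAs of siCTU2 cells against those of siGL2 cells before the transcription block. A pool was compared with a control siRNA, so that loss of CTU2 and other effects of the siRNAs cannot be told apart. In the T arm of siCTU2 cells 5 of the 9 members were upregulated as compared to siGL2 cells, 1 was downregulated and 3 did not pass the test. The 5 include *TXN*, which went the other way in the TCHX arm. *HMOX1* changed by far more than the others, 8.29-fold, followed by *NQO1* at 1.83-fold and *TXNRD1* at 1.63-fold, while *NFE2L2* itself stayed within a narrow interval around no change. Over all 12292 genes tested 36% were called (17.8% higher, 18.2% lower), the background to the 6 calls among 9 members. The median log2 change was 0.26 over the members and 0.005 over all genes. In bulk RNA, a change in how many cells carry an mRNA and a change in its amount per cell cannot be told apart.

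*HMOX1* encodes heme oxygenase 1, the inducible enzyme that breaks down heme. It was at 143.6, 211.1 and 154.5 CPM in the siCTU2 libraries and at 20.4, 22.7 and 18.0 CPM in those of siGL2. The lowest siCTU2 library lay several-fold above the highest control library. The log2 change was 3.05 ± 0.138 (SE; 95% interval 2.76 to 3.34; adjusted p = 1.16e-11), and it was 3.40 in the TCHX arm at 0 h. The levels in that arm were 194.0, 209.8 and 177.5 CPM in siCTU2 and 15.1, 22.1 and 18.2 CPM in siGL2.

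*NQO1*, the quinone reductase often used as a readout of NRF2, was at 1617.3, 2047.9 and 1905.5 CPM with siCTU2 and at 912.6, 1081.8 and 1047.2 CPM with siGL2. The groups did not overlap, and the log2 change was 0.87 ± 0.079 (SE, adjusted p = 1.04e-07). *TXNRD1*, the cytosolic thioredoxin reductase, was at 261.0, 272.1 and 232.6 CPM against 160.4, 170.8 and 136.2 CPM, also without overlap, with a log2 change of 0.71 ± 0.088 (SE, adjusted p = 5.07e-06). *SRXN1*, which encodes sulfiredoxin and repairs hyperoxidised peroxiredoxins, showed a smaller difference of 0.38 ± 0.098 on the log2 scale (SE, adjusted p = 0.00513), from 131.1, 131.5 and 120.6 CPM to 177.5, 185.6 and 137.9 CPM.

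*TXN*, which encodes thioredoxin itself, was higher in the T arm by a log2 change of 0.24 ± 0.073 (SE, adjusted p = 0.0137), with 412.4, 419.2 and 394.0 CPM against 347.0, 374.0 and 311.7 CPM. This call turned around in the other arm: at 0 h of the TCHX arm *TXN* was at 255.7, 359.5 and 301.5 CPM with siCTU2 and at 397.6, 413.8 and 326.8 CPM with siGL2, a log2 change of -0.30 (adjusted p = 0.0307), and over both arms together the change was -0.03 (adjusted p = 0.813). No direction is therefore given for *TXN*.

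The 2 subunits of glutamate-cysteine ligase, which catalyses the first step of glutathione synthesis, did not move together. *GCLC*, the catalytic subunit, was lower with siCTU2, at 31.1, 32.3 and 37.2 CPM against 41.0, 41.7 and 46.3 CPM (log2 change -0.36 ± 0.117, SE, adjusted p = 0.0229). The call was lost without siCTU2 replicate 1 (adjusted p = 0.0753) or 2 (0.0714) or siGL2 replicate 3 (0.0928). *GCLM*, the modifier subunit, had a log2 change of 0.26 ± 0.104 (SE), which missed the threshold (adjusted p = 0.0577) and passed it without siCTU2 replicate 3 (0.36, adjusted p = 0.00617). Its highest siCTU2 library, 230.7 CPM, lay well above the other siCTU2 libraries at 178.6 and 163.0 CPM.

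*NFE2L2* was at 173.5, 184.2 and 174.3 CPM with siCTU2 and at 170.0, 165.7 and 165.8 CPM with siGL2. The ranges lay side by side, and the log2 change was 0.08 with a 95% interval of -0.07 to 0.23 (adjusted p = 0.4). *OSGIN1*, an oxidative stress-induced growth inhibitor, overlapped between the groups (62.3, 64.1 and 52.4 CPM against 46.4, 51.8 and 59.9 CPM), with a log2 change of 0.17 (adjusted p = 0.258).

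**Figure D1:**
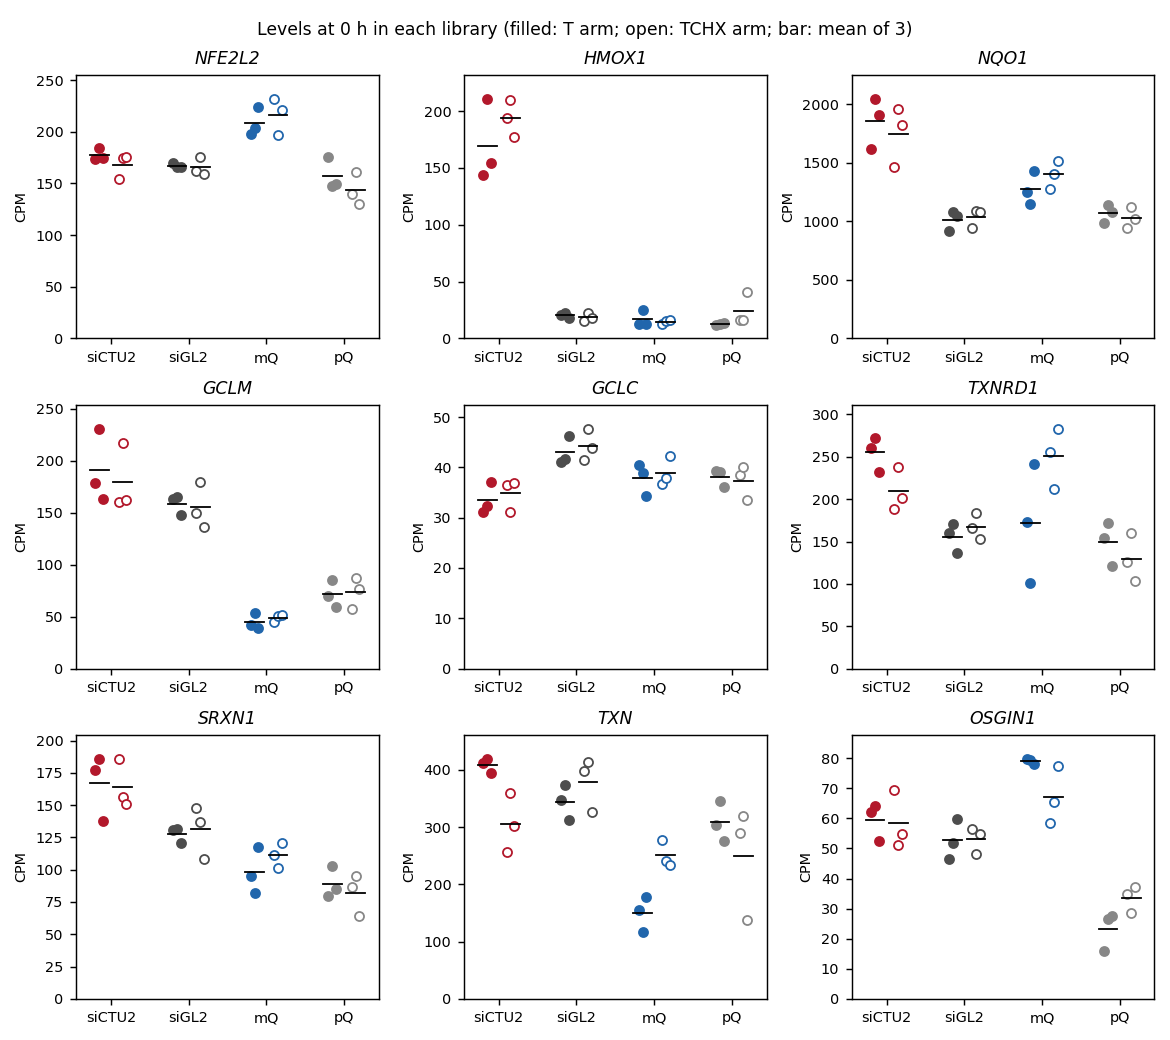
Level of each member at 0 h in CPM (y axis, from 0) in the 4 conditions (x axis), with 1 point per library, filled for the T arm and open for the TCHX arm, and a bar at the mean of 3. HMOX1 stands at 143.6 CPM or more in all 6 siCTU2 libraries and at 41.0 CPM or less in the other 18, and OSGIN1 is highest in mQ in the T arm.

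The second comparison asked what loss of glutamine, the precursor of glutamate and so of glutathione, did to the same mRNAs. After 18 h without glutamine 3 members were higher than in pQ in the T arm (*OSGIN1*, *NFE2L2* and *NQO1*), 2 were lower (*GCLM* and *TXN*) and 4 did not pass the test. The TCHX arm did not show the fall of *TXN*. The called share over all 12374 genes was 24.8% (12.5% higher, 12.4% lower), and the median log2 change was 0.26 over the members and 0.01 over all genes.

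*OSGIN1* had the largest change. It was at 79.8, 79.5 and 78.0 CPM in mQ and at 15.9, 26.6 and 27.5 CPM in pQ, so that every mQ library was above every pQ library. It rose 3.50-fold, a log2 change of 1.81 ± 0.178 (SE; 95% interval 1.42 to 2.2; adjusted p = 6.63e-05), and by 1.02 (adjusted p = 0.00524) with the TCHX libraries of 0 h, of which those of pQ were at 34.8, 28.5 and 37.1 CPM.

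*NFE2L2* was also higher, at 198.4, 204.0 and 224.2 CPM against 175.5, 147.4 and 149.5 CPM. The groups did not overlap, and the log2 change was 0.46 ± 0.109 (SE, adjusted p = 0.01) and 0.61 (adjusted p = 0.0105) in the TCHX arm. Without pQ replicate 2 it was 0.41 (adjusted p = 0.066). *NQO1* was only just past the threshold, at 1250.5, 1148.6 and 1426.7 CPM against 987.4, 1142.6 and 1082.2 CPM (log2 change 0.31 ± 0.103, SE, adjusted p = 0.0485). Leaving out 1 library at a time, it lost the call in 5 of 6 cases, the exception being mQ replicate 2.

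*GCLM* fell to 42.2, 53.0 and 38.7 CPM from 69.7, 85.4 and 59.4 CPM (log2 change -0.62 ± 0.16, SE, adjusted p = 0.015), and missed the threshold without mQ replicate 1 (adjusted p = 0.0628), pQ replicate 1 (0.0509) or pQ replicate 2 (0.0894). *GCLC* showed no call, with a log2 change of 0.04 and an adjusted p of 0.832.

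*TXN* was at 154.9, 116.0 and 177.1 CPM in mQ and at 304.3, 345.0 and 275.2 CPM in pQ in the T arm, a log2 change of -0.99 ± 0.147 (SE, adjusted p = 0.000887). The TCHX arm at 0 h did not show it: the levels there were 277.9, 241.5 and 234.1 CPM in mQ and 290.1, 319.7 and 137.3 CPM in pQ, and the log2 change was 0.04 (adjusted p = 0.953). Its lowest pQ library was one of the 3 with counts for more genes, and without that library the change in the TCHX arm was -0.25 (adjusted p = 0.0531).

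*TXNRD1* had a positive change in both arms but was called in one. In the T arm the mQ libraries were spread over 173.6, 100.7 and 241.0 CPM and overlapped with pQ at 154.3, 171.5 and 121.3 CPM, with no call (log2 change 0.26, adjusted p = 0.465). Without mQ replicate 2, the lowest of them, the change was 0.54 (adjusted p = 0.00351). In the TCHX arm *TXNRD1* was higher, at 255.9, 212.4 and 283.2 CPM against 125.5, 160.2 and 102.8 CPM (log2 change 0.97, adjusted p = 0.00768), and by 0.84 (adjusted p = 1.67e-05) without the pQ library that had counts for more genes. *HMOX1* had a log2 change of 0.50 in the T arm with a wide 95% interval of -0.08 to 1.07 (adjusted p = 0.192). One mQ library there was at 25.2 CPM, against 12.7 and 12.4 CPM in the others. In the TCHX arm at 0 h every mQ library lay below every pQ library, at 12.5, 15.2 and 15.8 CPM against 16.1, 16.3 and 41.0 CPM. The pQ library at 41.0 CPM was the one with counts for more genes. *SRXN1* had a log2 change of 0.19 (adjusted p = 0.362).

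**Figure D2:**
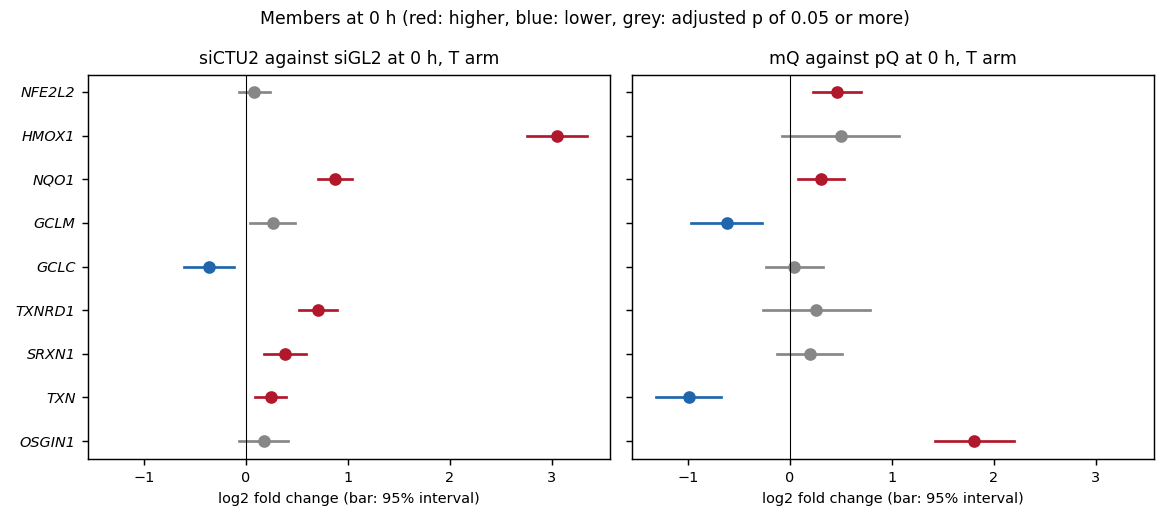
Log2 fold change of each member at 0 h in the T arm (x axis; bar, 95% interval) for siCTU2 against siGL2 (left) and mQ against pQ (right); red is higher and blue lower at an adjusted p under 0.05, grey is not called. HMOX1 leads on the left at 3.05 and OSGIN1 on the right at 1.81, and the intervals of NFE2L2 are -0.07 to 0.23 on the left and wholly above 0 on the right.

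The 2 effects were then compared with each other, as siCTU2 against siGL2 minus mQ against pQ. Of the 9 members, 4 had a higher and 2 a lower change with siCTU2 than without glutamine, and 32% of all 12950 genes tested differed (15.9% higher, 16.1% lower). The difference was 2.55 ± 0.308 on the log2 scale for *HMOX1* (SE, adjusted p = 5.95e-06), 0.88 for *GCLM* (adjusted p = 0.00328) and 0.56 for *NQO1* (adjusted p = 0.00494, but 0.30 and adjusted p = 0.16 in the TCHX arm). It was negative for *OSGIN1*, at -1.64 ± 0.223 (SE, adjusted p = 2.17e-05), and for *NFE2L2*, at -0.38 (adjusted p = 0.0275). The 2 conditions thus raised different members most. *TXN* differed by 1.24 (adjusted p = 3.03e-05) in the T arm, but by -0.34 (adjusted p = 0.457) in the TCHX arm, and *TXNRD1* by 0.45 (adjusted p = 0.246) and -0.64 (adjusted p = 0.0274). *GCLC* (-0.41, adjusted p = 0.0669) and *SRXN1* (0.19, adjusted p = 0.481) did not pass the test.

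Ordered by level in the T arm at 0 h, *HMOX1* was at 169.7 ± 36.2 CPM (SD, n = 3) in siCTU2, 20.4 ± 2.34 in siGL2, 16.8 ± 7.31 in mQ and 12.4 ± 1.04 in pQ. The mQ libraries overlapped with those of both controls. *NFE2L2* was at 208.9 ± 13.6 CPM in mQ, 177.3 ± 5.98 in siCTU2, 167.2 ± 2.46 in siGL2 and 157.5 ± 15.6 in pQ, and the last overlapped with both siRNA conditions. *OSGIN1* was at 79.1 ± 0.97 CPM in mQ, 59.6 ± 6.29 in siCTU2, 52.7 ± 6.77 in siGL2 and 23.3 ± 6.45 in pQ, of which the siRNA conditions overlapped. The 2 controls differ in transfection and time in culture, so that levels across the 2 experiments were not tested.

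Next, the regulators and other targets of NRF2 were examined, from lists drawn up with earlier results of these data known. Of 12 regulators and partners, 2 were higher and 3 lower in siCTU2 than in siGL2, beside 17.8% and 18.2% of all genes, so that the count lay near the background. *SQSTM1*, and *ABCC1* among the further targets, each had 1 further entry with a number after the symbol, which was not used. *KEAP1*, which holds NRF2 for degradation, was lower (log2 change -0.46, adjusted p = 0.000397), as were the repressor *BACH1* (-0.88, adjusted p = 8.58e-05) and *GSK3B* (-0.60, adjusted p = 8.97e-05), a kinase that marks NRF2 for a second ubiquitin ligase. *RBX1*, the RING subunit of CUL3 ligases, was higher (0.48, adjusted p = 6.57e-05), and so was the related factor *NFE2L3* (0.35, adjusted p = 0.0245).

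Without glutamine, 1 of the 12 was higher and 3 were lower, beside 12.5% and 12.4% of all genes. The small MAF gene *MAFF* rose by 0.90 on the log2 scale (adjusted p = 0.00015), while *RBX1* (-0.95, adjusted p = 0.000396), *CUL3* (-0.65, adjusted p = 0.00733) and *NFE2L3* (-0.59, adjusted p = 0.0319) fell. *KEAP1* had a log2 change of -0.32 (adjusted p = 0.0572). Between the 2 effects, 3 of the 12 regulators had a higher and 3 a lower change with siCTU2, beside 15.9% and 16.1% of all genes. *RBX1* differed by 1.43 and *MAFF* by -0.78.

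Of 40 further targets, 33 were tested in the siRNA comparison, of which 12 were higher and 7 lower, beside 17.8% and 18.2% of all genes (median log2 change 0.209, against 0.005 over all genes). By role, 3 of 6 glutathione and cystine genes were higher and 0 lower, 3 of 8 peroxide and NADPH genes higher and 1 lower, 2 of 7 heme and iron genes higher and 3 lower, and 4 of 12 detoxification genes higher and 3 lower. *SLC7A11*, the cystine carrier that feeds glutathione synthesis, was at 430.6, 478.7 and 431.8 CPM in siCTU2 and at 56.9, 63.0 and 72.9 CPM in siGL2. Its log2 change of 2.80 ± 0.091 (SE, adjusted p = 1.82e-13) came close to that of *HMOX1*. *TRIM16L* (2.36, adjusted p = 2.34e-10) and *TRIM16* (1.61, adjusted p = 2.58e-09) also rose, although reads of this near-identical pair may not be separable, and so did *AKR1C3* (1.81, adjusted p = 0.000705), which has close relatives of its own. The levels of *AKR1C3* were low, at 8.1, 10.6 and 14.1 CPM in siCTU2 and 1.5, 2.1 and 5.8 CPM in siGL2.

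*IDH1*, the cytosolic NADPH-producing isocitrate dehydrogenase, fell the most, from 71.5, 69.0 and 71.5 CPM to 6.0, 3.0 and 6.3 CPM (log2 change -3.79, adjusted p = 2.54e-11). With *IDH1* left out, 12 of 32 further targets were higher and 6 lower. *ABHD4* (-1.33, adjusted p = 0.0004) and *UGDH* (-0.80, adjusted p = 2.54e-06), which makes the sugar used for glucuronidation, fell as well.

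In the glutamine comparison 32 further targets were tested, of which 10 were higher and 4 lower, beside 12.5% and 12.4% of all genes (median log2 change 0.037, against 0.01 over all genes). By role, 1 of 6 glutathione and cystine genes was higher and 1 lower, 2 of 8 peroxide and NADPH genes higher and 0 lower, 3 of 7 heme and iron genes higher and 0 lower, and 4 of 11 detoxification genes higher and 3 lower. *SLC7A11* led again, at 442.0, 389.7 and 585.6 CPM in mQ and 99.9, 137.0 and 134.9 CPM in pQ (log2 change 1.98, adjusted p = 1.7e-05). *SLC48A1*, a heme transporter, rose by 1.47 (adjusted p = 0.000222) and *ABHD4* by 1.38 (adjusted p = 0.00709). *AKR1C3* (-2.25, adjusted p = 0.0141) and *MGST1* (-0.69, adjusted p = 0.0431), a microsomal glutathione transferase, fell. The *AKR1C3* libraries were near the floor, at 0.5, 0.5 and 0.4 CPM in mQ and 1.1, 2.9 and 3.1 CPM in pQ. *SLC7A11* was therefore higher in both comparisons, whereas *HMOX1* was called in one. Between the effects, 9 of 33 further targets had a higher and 5 a lower change with siCTU2, beside 15.9% and 16.1% of all genes. The count on the lower side thus lay near the background. The largest differences were 4.06 for *AKR1C3*, 1.71 for *TRIM16L* and 1.05 for *MGST1* on the higher side, and -3.68 for *IDH1*, -2.71 for *ABHD4* and -1.44 for *BLVRB*, a biliverdin reductase, on the lower side. The value for *AKR1C3* rests in part on its low levels in mQ and pQ.

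**Figure D3:**
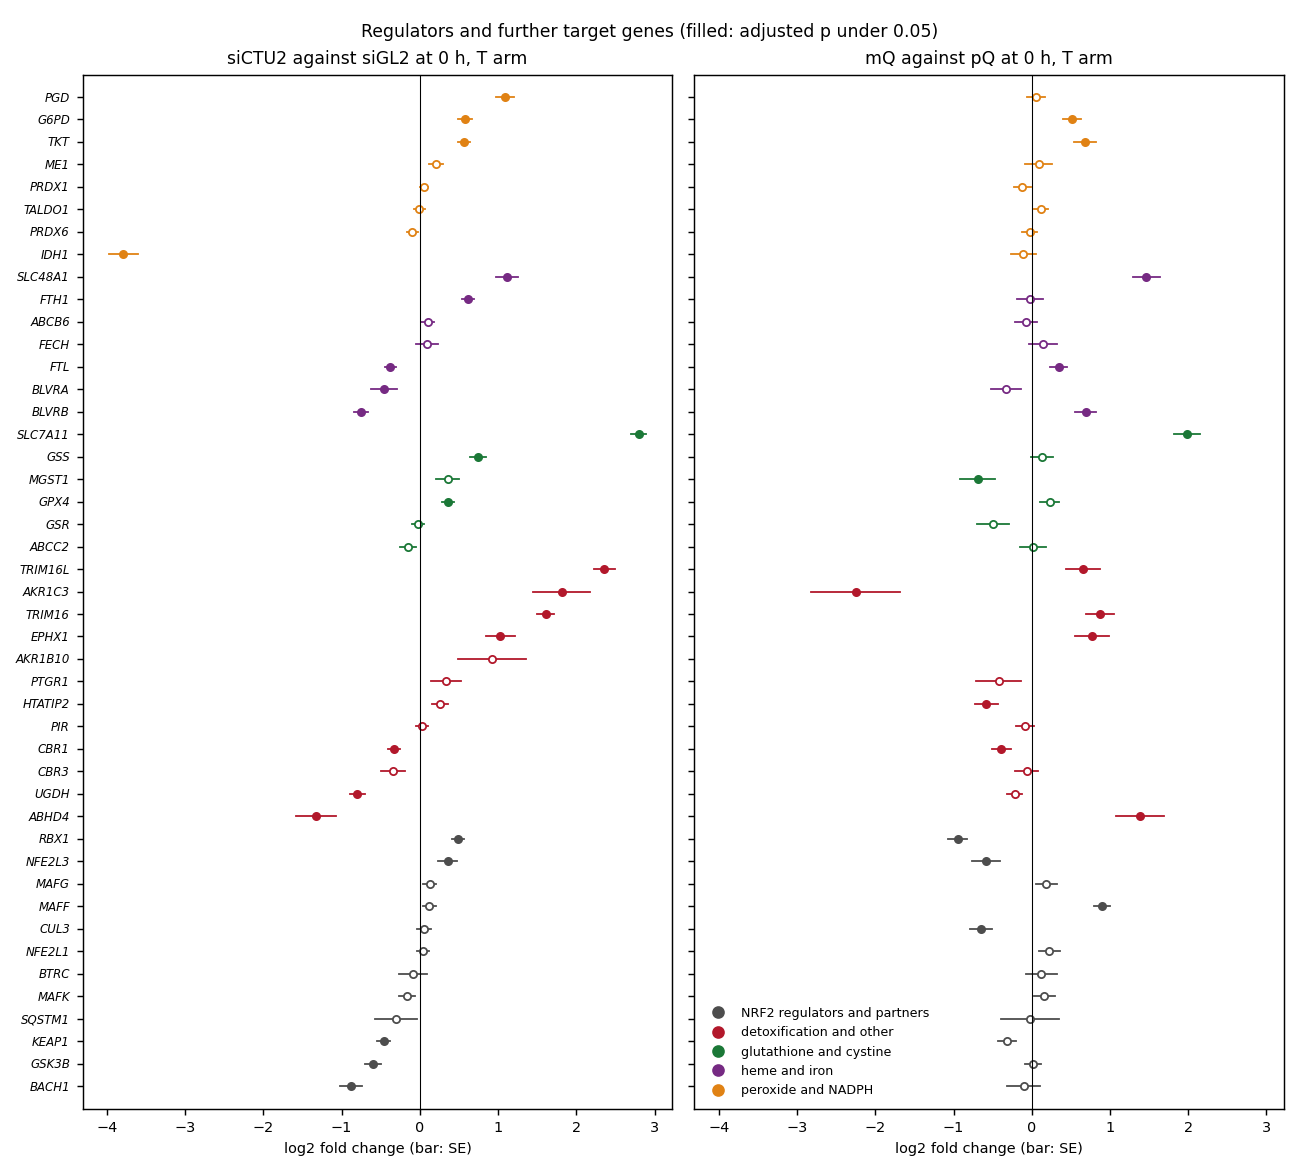
Log2 fold change (x axis; bar, SE) at 0 h in the T arm of the NRF2 regulators and the further target genes tested in siCTU2 against siGL2 (left) and mQ against pQ (right), coloured by list and filled where the adjusted p was under 0.05. SLC7A11 lies far to the right in both panels, at 2.80 and 1.98, whereas IDH1 at -3.79 stands alone on the left panel.

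The decay of each mRNA was followed in the T arm, in which transcription was blocked. Levels were scaled, after the study's methods, to genes whose CPM was at least 1.1 times the 0 h value at 3 h or 5 h in every replicate of both arms, with a rise of up to 10 times allowed. These 198 genes in the siRNA and 82 in the medium experiment were thus picked for a rising share of the mRNA, which sets all other genes lower than a scaling to total mRNA does. On this scale 37.2% of genes were called at 3 h in siCTU2 (36% lower), 29.7% in siGL2 (28.6% lower), 56.5% in mQ (55.4% lower) and 56.3% in pQ (55.2% lower). Of the 9 members, 6, 3, 5 and 6 were lower at 3 h than at 0 h in siCTU2, siGL2, mQ and pQ, and 0 were higher. The counts in siGL2, mQ and pQ lay near the shares of all genes that were lower. Median log2 changes of the members were -0.787, -0.504, -0.842 and -0.854, as compared to -0.549, -0.471, -0.713 and -0.692 over all genes. With scaling by trimmed mean of M values (TMM), which sets changes against the bulk of mRNAs, 1 member was called in each condition, *OSGIN1* in siCTU2 (-0.85, adjusted p = 0.0495) and *NFE2L2* in siGL2 (-0.44, adjusted p = 0.0244), mQ (-0.73, adjusted p = 0.00454) and pQ (-0.57, adjusted p = 0.0145). The counts also moved with single replicates. In the same order, leaving out replicate 1 gave 2, 1, 4 and 3 members, leaving out replicate 2 gave 4, 2, 3 and 2, and leaving out replicate 3 gave 6, 7, 7 and 9.

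*NFE2L2* mRNA was among the members that fell in all 4 conditions. At 3 h it was at 47.4, 52.0 and 45.0% of the mean 0 h level in siCTU2, 60.6, 50.7 and 47.2% in siGL2, 36.3, 38.9 and 33.9% in mQ and 44.0, 45.2 and 36.1% in pQ. Its log2 changes were -1.05 (adjusted p = 2.93e-05), -0.92 (8.42e-05), -1.46 (6.94e-05) and -1.26 (1.39e-05), in the same order, and the call held without any 1 replicate. The loss went on to 34.4, 33.5 and 32.3% at 5 h in siCTU2 and 43.3, 39.6 and 34.6% in siGL2.

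*OSGIN1* was reduced the most by 5 h. In siCTU2 it went from 34.3, 49.2 and 30.9% at 3 h to 5.2, 9.3 and 9.0% at 5 h, and in siGL2 from 46.3, 64.3 and 30.2% to 10.1, 16.8 and 10.6%. In mQ 2 of the 3 libraries kept 7.9% each at 5 h, while replicate 3, one of the libraries with counts for more genes, kept 28.4%. In pQ the 5 h values were 16.4, 24.2 and 26.5%. The log2 changes at 5 h were -3.67 (adjusted p = 1.49e-08), -3.0 (9.38e-08), -2.74 (0.000137) and -2.17 (1.08e-06), and those at 3 h -1.39, -1.09, -1.63 and -0.90, all called. The 3 h call was lost in siGL2 without replicate 1 (-1.16, adjusted p = 0.0629) and in pQ without replicate 2 (-0.82, adjusted p = 0.0819).

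*SRXN1* also fell at 3 h in all 4 conditions, by log2 changes of -0.94 (adjusted p = 0.0381), -0.96 (0.0476), -0.91 (0.00412) and -0.89 (0.0152), although without replicate 2 the adjusted p was 0.0629 or more in each, and at 5 h by -1.86, -1.72, -1.33 and -1.66 (adjusted p of 0.000873 or less). *GCLC* fell at 3 h in siCTU2 (-0.56, adjusted p = 0.0363), mQ (-0.84, 0.00108) and pQ (-0.97, 0.00031), and had -0.50 in siGL2 (adjusted p = 0.0643). The siCTU2 call was lost without replicate 1 (adjusted p = 0.278) or 2 (0.0876), and the change there was near the median over all genes of -0.549. *GCLM* was called at 3 h in siCTU2 and mQ, *TXNRD1* in siCTU2 and pQ, and *NQO1* in pQ. In mQ the *GCLM* change of -0.73 was near the median over all genes of -0.713. *NQO1* in pQ fell by less than the median over all genes there, -0.51 against -0.692. For *NQO1* in pQ the TMM scaling gave a change of 0.19 (adjusted p = 0.533) in place of a fall. Each of these 5 calls was lost without replicate 1, with adjusted p of 0.209 and 0.104 for *GCLM*, 0.139 and 0.136 for *TXNRD1* and 0.199 for *NQO1*, and those of *GCLM* in mQ (0.21) and *TXNRD1* (0.188) and *NQO1* (0.0893) in pQ also without replicate 2.

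*HMOX1* and *TXN* were not called at 3 h in any condition. *TXN* kept 75.6, 80.9 and 88.1% in siCTU2 at 3 h and 103.6, 84.4 and 70.1% in siGL2, and *NQO1* 71.1, 90.1 and 80.0% and 80.7, 94.7 and 85.9%. At 5 h *HMOX1* spread widely, with 53.9, 70.8 and 118.5% in siCTU2 and 13.5, 21.1 and 172.2% in mQ, the last value of each being replicate 3. Values above 100% after a transcription block are a level relative to the scaling genes, and the part of replicate 3 in them was not tested.

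The change at 3 h did not pass the test of a difference between conditions for any member or for any gene. For siCTU2 against siGL2, edgeR called 0% of 14259 genes, with 414 at an unadjusted p under 0.05, and for mQ against pQ 0% of 14177, with 356. DESeq2 called 0 members in either. The difference for *NFE2L2* was -0.13 (95% interval -0.50 to 0.23) in the siRNA experiment and -0.20 (-0.64 to 0.23) in the medium experiment.

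**Figure D4:**
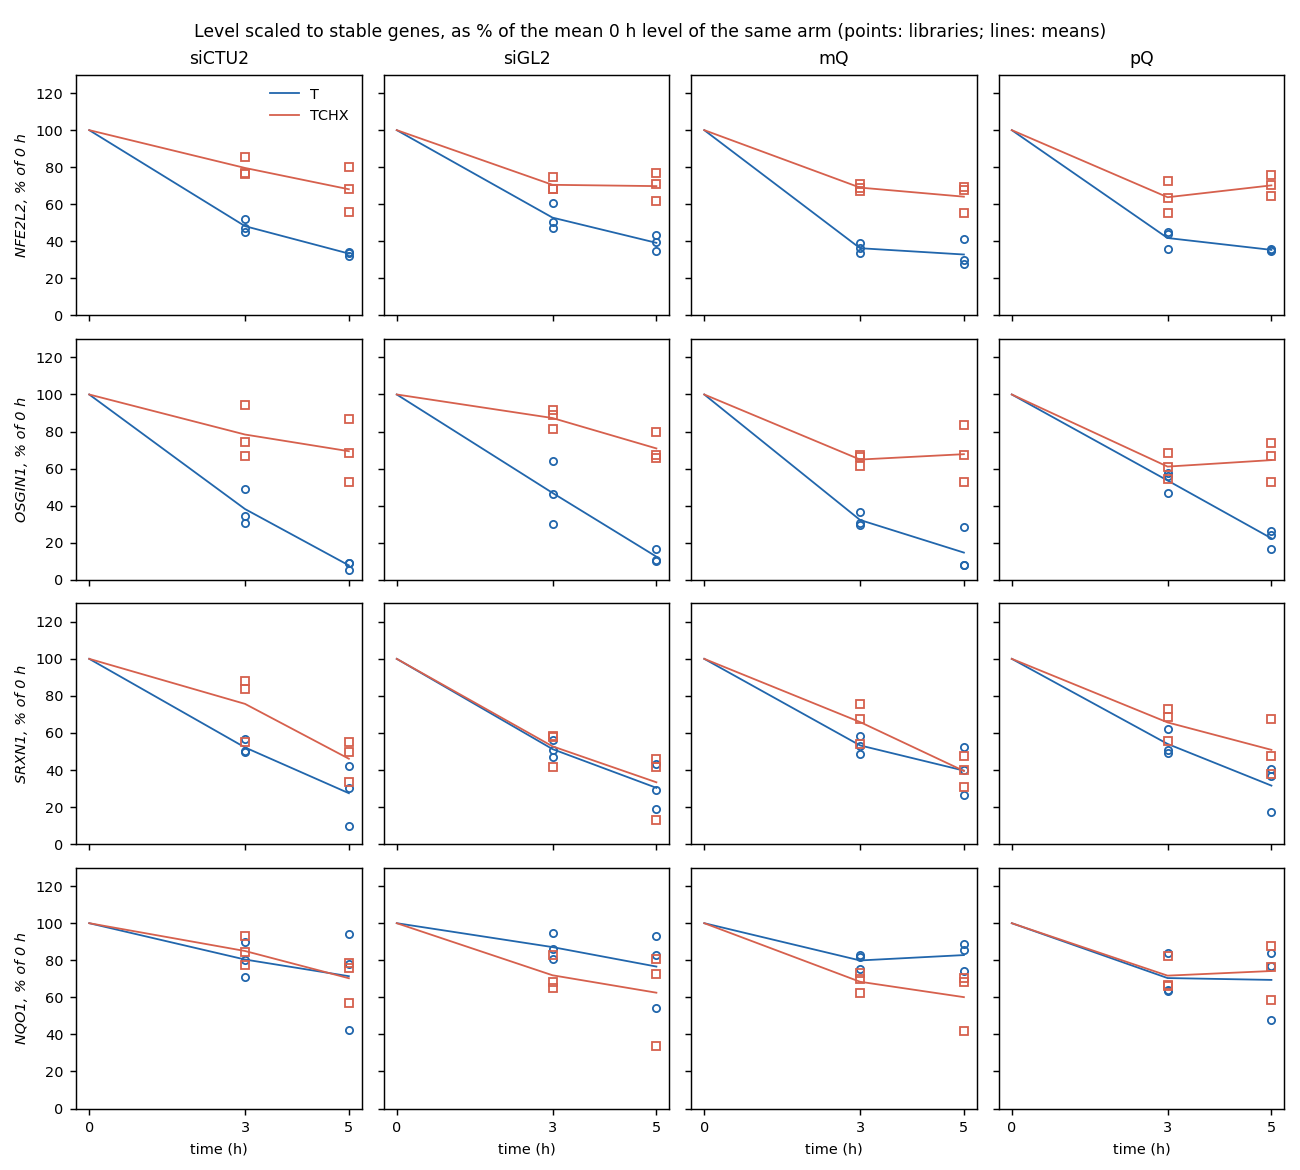
Level of NFE2L2, OSGIN1, SRXN1 and NQO1 after scaling to stable genes, as a percent of the mean 0 h level of the same arm (y axis), against time after triptolide in h (x axis) in the 4 conditions; points are libraries and lines join means. OSGIN1 fell to 5.2 to 9.3% in the T arm of siCTU2 at 5 h and kept 52.7 to 86.9% with cycloheximide, whereas the arms of NQO1 overlapped.

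The last set of comparisons asked how much of the decay depended on translation, by setting the TCHX arm against the T arm over 3 h and 5 h. *NFE2L2* and *OSGIN1* were higher with cycloheximide in all 4 conditions, *HMOX1* in siGL2 only, and the other 6 members in none. The members called higher were 2 in siCTU2, 3 in siGL2, 2 in mQ and 2 in pQ, none lower, beside 21.1% of genes in siCTU2 (21% higher), 12.7% in siGL2 (12.1% higher), 5.24% in mQ (5.12% higher) and 12.7% in pQ (12.3% higher). At 0 h the arms differed for 0 genes in edgeR in every condition, while before adjustment 160 genes had p under 0.05 with siCTU2, 96 with siGL2, 311 without glutamine and 287 in control medium. In siCTU2, siGL2, mQ and pQ, the log2 of TCHX over T at 0 h was -0.110, 0.051, -0.197 and 0.434 for *OSGIN1*. For *NFE2L2* it was -0.155, 0.020, 0.083 and -0.187. The comparison does not subtract these differences. With them subtracted, fewer members were called in mQ and pQ.

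For *OSGIN1* the log2 of TCHX over T was 1.98 ± 0.175 (SE, adjusted p = 3.27e-07) in siCTU2, 1.75 ± 0.168 (1.49e-06) in siGL2, 1.39 ± 0.246 (0.00595) in mQ and 1.30 ± 0.162 (1.63e-05) in pQ. At 5 h with cycloheximide the mRNA kept 68.6, 86.9 and 52.7% of its 0 h level in siCTU2, 67.4, 79.6 and 65.8% in siGL2, 52.7, 67.1 and 83.6% in mQ and 52.9, 67.0 and 73.8% in pQ. No TCHX library overlapped with the T libraries at 5 h in any condition. Most of the difference came at 5 h, where it was 3.03, 2.56, 1.98 and 1.97, as compared to 0.93, 0.95, 0.81 and 0.63 at 3 h, of which the last 2 did not pass the test (adjusted p = 0.281 and 0.198).

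For *NFE2L2* the log2 of TCHX over T was 0.72 ± 0.096 (SE, adjusted p = 2.43e-05), 0.64 ± 0.093 (0.000102), 1.03 ± 0.109 (0.000128) and 0.61 ± 0.111 (0.000746), in the same order. At 5 h it kept 80.3, 68.3 and 55.8% with cycloheximide in siCTU2 and 70.8, 77.0 and 61.6% in siGL2, all above the T arm. In mQ the values were 67.7, 55.3 and 69.4%, and in pQ 75.6, 64.6 and 70.3%. The pQ value became 0.28 (adjusted p = 0.135) when scaled to the few genes that were stable at both times.

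The *HMOX1* effect in siGL2 was 0.62 ± 0.183 (SE, adjusted p = 0.0317), without replicate 1 or 2 it was 0.56 (adjusted p = 0.125) and 0.66 (0.283), and it was 0.05 in siCTU2 (95% interval -0.44 to 0.53). The difference between these 2 values, -0.58 (95% interval -1.21 to 0.06), did not pass the test (adjusted p = 0.611). Without replicate 3, *TXNRD1* (-0.27, adjusted p = 0.0273) and *TXN* (-0.48, adjusted p = 0.000262) were lower with cycloheximide in siGL2, which made 5 members called. Without the library whose *CTU2* level went against its label, the siCTU2 values were 0.78 (adjusted p = 7.63e-06) for *NFE2L2* and 2.06 (adjusted p = 2.63e-07) for *OSGIN1*.

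In mQ the calls depended on single replicates. Without replicate 1 or 2, the members called were 0, with *NFE2L2* at 0.96 (adjusted p = 0.0944) and 1.08 (0.113) and *OSGIN1* at 1.32 (0.289) and 1.22 (0.507). Only 2 genes and 1 gene in all were then called. Without the library mQ T 5 h replicate 3 alone, 5 members were called, which added *HMOX1* (1.24, adjusted p = 0.00463), *GCLC* (0.40, 0.0113) and *SRXN1* (0.49, 0.025).

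**Figure D5:**
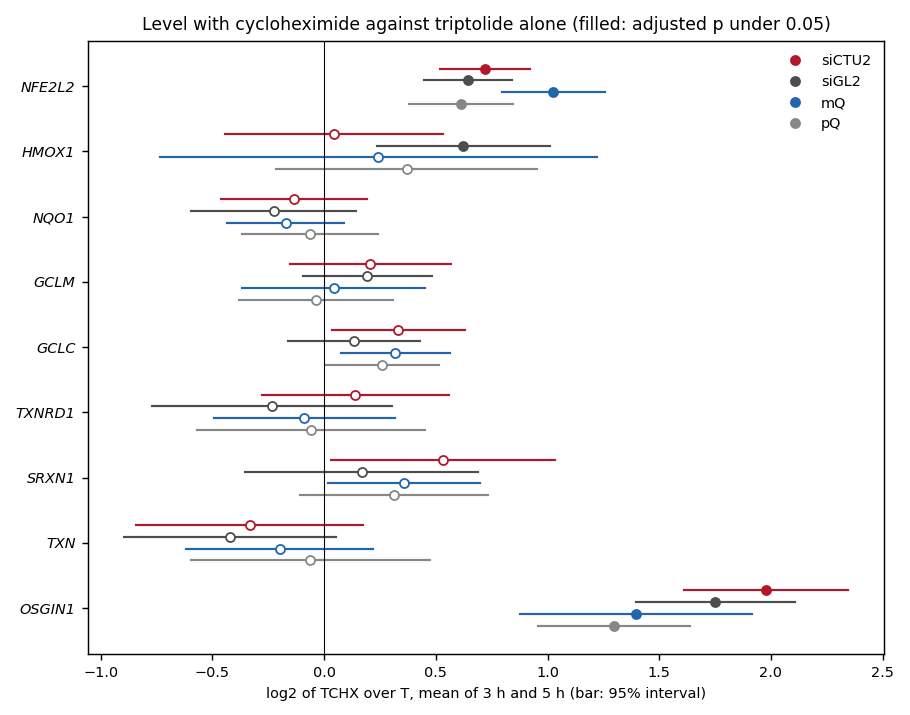
Log2 of the TCHX level over the T level, as the mean of 3 h and 5 h (x axis; bar, 95% interval), for each member in the 4 conditions, filled where the adjusted p was under 0.05. NFE2L2 lies between 0.61 and 1.03 and OSGIN1 between 1.30 and 1.98, all filled, while the only other filled point is HMOX1 in siGL2 at 0.62.

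Neither condition was shown to alter the effect of cycloheximide on a member. For siCTU2 against siGL2, 0.379% of 14259 genes differed and 0 members were among them, and for mQ against pQ edgeR called 0% of 14177 genes, with 525 at an unadjusted p under 0.05. The nearest member was *NFE2L2*, whose effect was larger in mQ than in pQ by 0.41 (95% interval 0.10 to 0.72; unadjusted p = 0.0104, adjusted p = 1), and by 0.51 (adjusted p = 0.104) without the library mQ T 5 h replicate 3, where 68 genes were called. For *OSGIN1* the differences were 0.23 (95% interval -0.27 to 0.72) and 0.10 (-0.53 to 0.72).

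The translation-dependent decay (TDD) index, the TCHX level minus the T level as a share of the 0 h level, was highest for *OSGIN1* among the members in all 4 conditions. Averaged over both times it was 0.468 ± 0.054 (SD, n = 3) in siCTU2, 0.513 ± 0.016 in siGL2, 0.368 ± 0.045 in mQ and 0.397 ± 0.046 in pQ for *OSGIN1*, and 0.272 ± 0.084, 0.250 ± 0.065, 0.350 ± 0.056 and 0.220 ± 0.052 for *NFE2L2*. *HMOX1* in siGL2 was at 0.320 ± 0.056. The means of *NQO1* were -0.066, -0.116, -0.082 and -0.030, and those of *TXN* -0.159, -0.193, -0.124 and -0.023. All of these were below 0, several by less than their SD. A linear model called 0% of 12263 genes between siCTU2 and siGL2 (1000 at an unadjusted p under 0.05) and 0% of 12395 between mQ and pQ (592), and limma called 0 in both. Among the members the lowest p-values were those of *SRXN1* in the siRNA experiment, with a difference of 0.131 (unadjusted p = 0.0458, adjusted p = 0.608), and *NFE2L2* in the medium experiment, with 0.13 (unadjusted p = 0.0379, adjusted p = 0.997).

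Among the regulators, cycloheximide raised 6 of the 12 in siCTU2, 1 in siGL2, 2 in mQ and 3 in pQ, beside 21%, 12.1%, 5.12% and 12.3% of all genes. The small MAF gene *MAFK* was higher in all 4 conditions (log2 of TCHX over T 0.82, 0.90, 1.18 and 1.01, adjusted p of 0.0419 or less), *MAFF* in siCTU2 (0.83), mQ (1.14) and pQ (1.00), and *BACH1* in siCTU2 (1.16) and pQ (0.91). Of the further targets, 1 was higher in pQ, *TRIM16L* (0.59, adjusted p = 0.0387), and 0 in the other conditions, and 1 was lower in siGL2, *SLC7A11* (-0.60, adjusted p = 0.000173), which is named because of this count and was picked after its value was seen. In the T arm at 3 h, 6, 5, 7 and 10 of the regulators were lower than at 0 h in siCTU2, siGL2, mQ and pQ, and 5 of 34, 3 of 33, 20 of 32 and 16 of 32 further targets, beside 36%, 28.6%, 55.4% and 55.2% of all genes.

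Across the 24 groups, the members did not follow a single pattern. Of the 36 pairs of members 28 had a Pearson correlation of the group means of log2(CPM + 1) above 0, with a median of 0.27 and a range from -0.44 (*NQO1* and *GCLC*) to 0.91 (*NFE2L2* and *OSGIN1*). These groups share arms, times and libraries of one depth range, so that the correlations are descriptions. Among 8224 genes, those most like *NFE2L2* were *EPC2* (r = 0.972), *PPP1R15A* (0.961) and *CIR1* (0.948), and those most like *OSGIN1* were *CIR1* (0.936), *ZNF827* (0.930) and *KAT7* (0.929). *HMOX1* was closest to *DENND5B* (0.976), *MICALL1* (0.976) and *TRIM58* (0.973), and *NQO1* to *NRP1* (0.965), *WWC3* (0.962) and *STYX* (0.956).

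The other members had different neighbours. *GCLM* was closest to *MAP7D1* (r = 0.958), *FAM3C* (0.951) and *EEA1* (0.942), and *GCLC* to *BACH1* (0.937), *KLHL8* (0.936) and *TOMM70* (0.934). *TXNRD1* was closest to *ALAS1* (0.897), *CSNK2A1* (0.894) and *CCPG1* (0.893), *SRXN1* to *TPST1* (0.966), *ANKRD28* (0.945) and *TAB2* (0.941), and *TXN* to *OST4* (0.930), *CMPK1* (0.921) and *SELENOT* (0.918). No member was among the 3 closest genes of another.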

How the data were processed

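Per the paper's methods, the authors trimmed forward reads (fastp 0.20.1), aligned them to GRCh38.p13 with HISAT2 2.2.1 and counted reads on exons with HTSeq 0.13.5; strand and molecular identifiers are not stated, so overlapping or antisense genes and PCR copies cannot be separated. The deposited values were raw counts per gene, and 0 sample columns lacked a sample. The spike-in was not used. As 3′ tags, levels were not compared between genes.

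Counts were tested in R 4.3.3 with edgeR 4.0.16 (quasi-likelihood, filterByExpr, Benjamini-Hochberg over all genes tested, threshold 0.05), scaled by TMM at 0 h (T arm, 6 libraries) and by stable genes in the time courses (18 libraries, or 36 for differences between conditions). For the TDD index an ordinary linear model had terms for replicate number, time and condition, for genes with a mean 0 h count of at least 10. The members and lists were chosen with earlier results of these data known. From the lists, at most the 4 largest rises and 4 largest falls were named at 0 h and the 3 largest rises with cycloheximide; for each member, the 3 most correlated genes with a mean of at least 10 CPM. DESeq2 1.42.0, other scalings, filters, arms, a replicate block and left-out libraries were tried. Scripts were tested on simulated data. Intervals are 95%. No pair of libraries looked like a duplicate. Promoters came from RefSeq, GRCh38.p14.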

Additional observations from a re-analysis of the deposited data

How the results depend on the processing

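Of 1539 values of single members under alternatives, 1394 kept their direction and side of the threshold, 80 lost the call, 59 gained one and 6 reversed. The reversals were *TXN* in siCTU2 in the TCHX arm at 0 h (-0.302, adjusted p = 0.0307) and in both arms (-0.03, 0.813), *TXN* in mQ in the TCHX arm (0.036, 0.953), the siCTU2 effect minus the mQ effect in the TCHX arm for *TXNRD1* (-0.638, 0.0274) and *TXN* (-0.336, 0.457), and *NQO1* in pQ at 3 h with TMM scaling (0.185, 0.533); the cause was not tested. Both arms together, the fits without the library mQ T 5 h replicate 3 and the fit without one pQ library were chosen after seeing the data.

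For the T arm at 3 h, TMM scaling left 1 member called in each condition; scaling to genes stable at both times gave 6 in siGL2 and 8 in mQ, and in siGL2 DESeq2 gave 5 and the 5 h time 6. For TCHX against T, 3 h alone gave 1 in siGL2, 1 in mQ and 0 in pQ, subtracting the 0 h difference 0 in mQ and 1 in pQ, genes stable at both times 1 in pQ, and leaving out the library mQ T 5 h replicate 3 gave 5 in mQ. With each arm divided by its own 0 h library, the TDD index of 1 member differed between mQ and pQ. Leaving out 1 replicate at a time, the members called ranged from 4 to 7 for siCTU2 against siGL2, 2 to 6 for mQ against pQ, 2 to 6, 1 to 7, 3 to 7 and 2 to 9 in the T arm of siCTU2, siGL2, mQ and pQ, 2 to 5 and 0 to 5 for TCHX in siGL2 and mQ, and 0 to 2 for the T arm change in mQ against pQ (2 without replicate 3).

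Same-numbered libraries of siCTU2 and siGL2 deviated together with r = 0.0741, 0.154 and 0.26 and those of mQ and pQ with 0.107, -0.145 and -0.133, and not every library correlated best with its own number. Over all groups the median r was 0.159 for the same number and -0.078 for other numbers, and each number has 1 prefix in the count columns. The labels do not say that it marks a shared culture, day or batch, so the main edgeR fits did not use the numbers as pairs. The TDD index and the choice of stable genes were worked out within each replicate number. The linear model of the index had a term for that number. The replicate block moved the members called from 3 to 6 in the T arm of siGL2 and from 6 to 9 in that of pQ, and changed 9 of 171 single calls, 8 gained and 1 lost. Depth did not leave any member under 25 counts; the spread between 3 libraries sets the precision.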
